A study of Homo sapiens with 4 samples.

Results

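The protein genes of the cytosolic ribosome were followed in A549 cells, a human lung adenocarcinoma line, cultured in 3D or in 2D under hypoxia or normoxia. Members were gene symbols of the form RPL or RPS with a number and an optional A or X, together with RPLP0, RPLP1, RPLP2 and RPSA, with a mean of at least 1 FPKM over the libraries. FPKM is the number of fragments relative to transcript length and library depth. Of 77 matching symbols 76 passed. They were 76 of the 26255 listed symbols, 46 of the large subunit and 30 of the small subunit.

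There were 4 libraries, 1 for each of 3D hypoxia, 3D normoxia, 2D hypoxia and 2D normoxia, all from A549 cells of the genotype WT. Cells had been kept for 5 days in DMEM with 5% FBS, on solidified Matrigel for 3D or on an ordinary dish for 2D, and hypoxia meant 1% oxygen. With 1 library per group, differences between 2 libraries are given by size and have no replicate check.

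The cytosolic ribosome translates messenger RNA. Its small subunit reads the message and its large subunit joins amino acids, and each subunit holds 1 copy of most of its proteins, with the acidic stalk proteins RPLP1 and RPLP2 as the known exception. The messenger RNAs of these proteins typically begin with a cytosine followed by a run of pyrimidines, the 5′ terminal oligopyrimidine tract, through which their translation responds together to growth signals such as mTOR. In epithelial tumour cells these transcripts are among the most abundant of all.

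The sequences at the start of 9 members are shown because these genes lie at the extremes of the comparisons that follow. Each is 30 bases long, 15 before and 15 from the annotated RefSeq start (GRCh38.p14), written 5′ to 3′ on the gene's strand. Capitals mark the run of C and T that begins at the start, or the start base alone where the tract is not there. The tract was searched on the gene's strand as a C at the start followed by 4 bases that were each C or T.
RPSA, chr3:39406705-39406734, plus strand: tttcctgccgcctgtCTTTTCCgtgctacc
RPS12, chr6:132814554-132814583, plus strand: gcgtgcggatgaggcCTCTTTCCCTgccgc
RPLP0, chr12:120201097-120201126, minus strand: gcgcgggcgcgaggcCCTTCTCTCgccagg
RPL12, chr9:127451392-127451421, minus strand: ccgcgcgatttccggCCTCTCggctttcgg
RPL13A, chr19:49487593-49487622, plus strand: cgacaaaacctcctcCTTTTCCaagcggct
RPS9, chr19:54200843-54200872, plus strand: gtggcgcttccgcgcCTCTTTCTCagtgac
RPL21, chr13:27251543-27251572, plus strand: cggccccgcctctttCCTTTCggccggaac
RPS29, chr14:49598696-49598725, minus strand: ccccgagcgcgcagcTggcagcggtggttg
RPS26, chr12:56041903-56041932, plus strand: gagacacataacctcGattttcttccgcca

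Of the 76 members, 62 had a start in the RefSeq promoter table, and 46 of these (74.2%) carried the tract at a start. The share was 28 of 38 for the large subunit (73.7%) and 18 of 24 for the small subunit (75%). Among all 27305 genes of the table, 1404 carried it (5.14%). RPS26 and RPS29 had no match at the annotated start, which says only that these letters are not at that position of the annotation.

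Ribosomal protein transcripts made up 18.3% of all FPKM in 3D hypoxia, 17.6% in 3D normoxia, 16% in 2D hypoxia and 13.5% in 2D normoxia. Large subunit genes took 10.1%, 9.69%, 8.69% and 7.50% of the sum in the same order of libraries. Small subunit genes took 8.16%, 7.87%, 7.31% and 6.0%. Both subunits thus followed the same order of libraries, and the large subunit sum was 1.24, 1.23, 1.19 and 1.251 times the small subunit sum. Per gene the order was the reverse, with medians of 1118, 992, 802 and 640 FPKM for the 46 large subunit genes and of 1538, 1326, 1128 and 889 FPKM for the 30 small subunit genes. These are shares of RNA, as FPKM summed over all listed symbols with small RNA genes included. How much single symbols weigh in these sums was not tested. In bulk libraries fewer cells of a type and less RNA per cell cannot be told apart, and RNA per cell was not measured.

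The median member stood at 1252 FPKM in 3D hypoxia, 1085 in 3D normoxia, 971 in 2D hypoxia and 708 in 2D normoxia. Members held 53, 51, 47 and 40 of the 100 highest places in these libraries. The order 3D hypoxia, 3D normoxia, 2D hypoxia, 2D normoxia, from high to low, held in 68 members, 44 of the large and 24 of the small subunit (36 after each library was rescaled to the same FPKM sum). The library of 3D hypoxia was the highest for 70 members, and the library of 2D normoxia was the lowest for 74. The FPKM sums of the libraries ran in the same order. The share of all genes with these orders was not counted, so the counts have no background here.

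**Figure D1:**
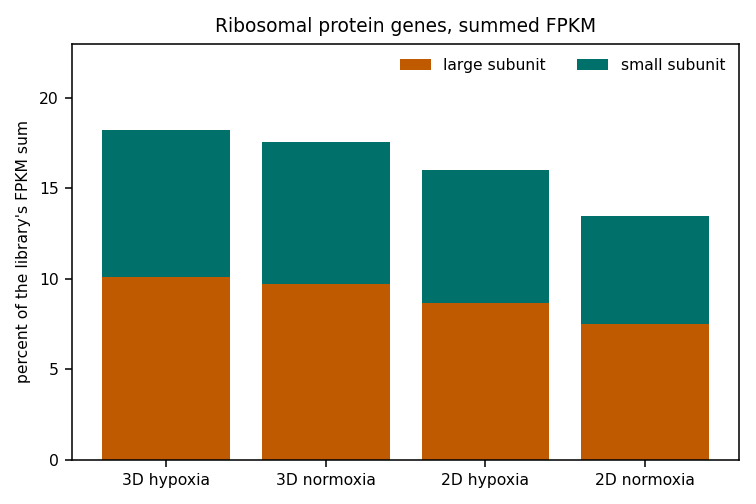
Share of all FPKM held by the 46 large subunit and 30 small subunit genes in each library, in percent (bars from 0; 1 library per bar, so no error is shown). Together they held 18.3% in 3D hypoxia, 17.6% in 3D normoxia, 16% in 2D hypoxia and 13.5% in 2D normoxia.

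Levels differed widely between members. RPL41, the smallest protein of the ribosome, had 4486 FPKM in 3D hypoxia, 4555 in 3D normoxia, 4273 in 2D hypoxia and 3681 in 2D normoxia. RPLP1, a stalk protein of the large subunit, had 5551, 4473, 4217 and 2709 FPKM in the same order. RPLP1 spread more than RPL41, whose 3D libraries were nearly level. The small subunit genes RPS27 and RPS16 followed by mean level. RPS27 had 4684, 3814, 3614 and 2431 FPKM. RPS16, at 3710, 3306, 2626 and 2089 FPKM, showed the same order of libraries. At the low end stood RPL21, RPL27A, RPL22, RPL34 and RPS23, with means of 106.4, 113.0, 140.3, 154.5 and 198.6 FPKM. FPKM is scaled to transcript length, but a level also depends on how fragments shared with copies were assigned.

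RPLP0, the protein that anchors the stalk, had 2622 FPKM in 3D hypoxia, 1962 in 3D normoxia, 1884 in 2D hypoxia and 1093 in 2D normoxia. RPLP2, the partner of RPLP1, had 1601, 1405, 1388 and 1020 FPKM. RPSA, a small subunit protein also known as the laminin receptor precursor, had 1137, 805.2, 1040 and 546.8 FPKM. RPSA therefore ran in another order from the stalk genes, with 2D hypoxia above 3D normoxia.

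**Figure D2:**
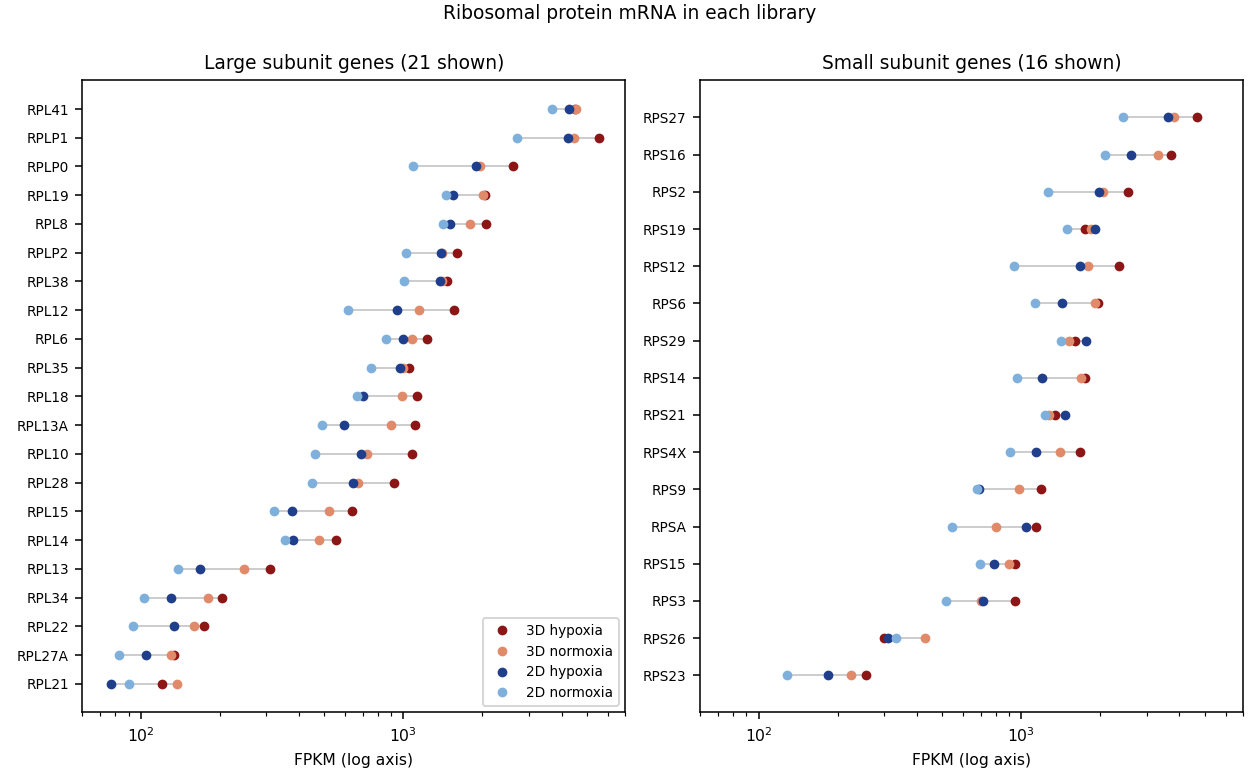
FPKM (log axis) in 3D hypoxia, 3D normoxia, 2D hypoxia and 2D normoxia of the members whose levels or ratios are described here, by subunit and ordered by mean; each point is 1 gene in 1 library and the grey line joins its lowest and highest. RPLP1 reaches 5551 FPKM in 3D hypoxia, against 2709 FPKM in 2D normoxia, and RPL21 lies lowest.

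The first comparison asked what hypoxia did within each culture. In 3D, members stood slightly higher in hypoxia, with a median log2 ratio of log2(FPKM + 1) of 0.19 (0.18 for the large and 0.19 for the small subunit), against -0.02 for all 12663 genes that averaged 1 FPKM or more. All ratios here are on this scale. Of the 76 members 72 lay above 0 (47.7% of all genes did). In 2D the median was 0.36 (0.31 for the large and 0.37 for the small subunit), with 74 members above 0 (49.6% of all genes) and a median of -0.00 for all genes. A log2 ratio of at least 0.32 was reached by 9 members in 3D, 6 large and 3 small (17.1% of all genes), and by 45 members in 2D, 23 large and 22 small (15.5% of all genes). The members' share was thus no higher than the background in 3D and above it in 2D. Lower in hypoxia by at least 0.32 was RPS26 alone in 3D (16.4% of all genes) and no member in 2D (16.2% of all genes). No member reached 2-fold higher in either culture (2.91% of all genes in 3D and 2.01% in 2D did).

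In 3D the large subunit genes highest in hypoxia included RPL10, which is loaded late in the maturation of the large subunit, at 0.56, and RPL28 at 0.45. RPL10 had 1075 FPKM in 3D hypoxia and 728.6 in 3D normoxia, and 687.2 in 2D hypoxia and 462.3 in 2D normoxia. Hypoxia exceeded normoxia in both cultures for this gene. The small subunit genes highest in 3D were RPSA at 0.50, RPS3, which lies at the entry of the message channel, at 0.44 and RPS12 at 0.40. RPS3 had 950.1 FPKM in 3D hypoxia and 701.2 in 3D normoxia, and 714.6 in 2D hypoxia and 515.5 in 2D normoxia. RPS3 was 1 of only 4 members with both hypoxia libraries above both normoxia libraries, with RPSA, RPS21 and RPS29 (16.7% of all genes did so).

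In 2D the highest were RPLP0 at 0.79, RPLP1 at 0.64 and RPL12, a protein at the base of the stalk, at 0.61 in the large subunit. In the small subunit they were RPSA at 0.93, RPS12 at 0.83 and RPS2 at 0.64. RPS12 had 2366 FPKM in 3D hypoxia and 1788 in 3D normoxia, and 1680 in 2D hypoxia and 942.9 in 2D normoxia. RPL12 had 1556 FPKM in 3D hypoxia and 1147 in 3D normoxia, and 942.7 in 2D hypoxia and 618.1 in 2D normoxia. RPLP2, the other stalk protein, was at 0.44, nearer to the member median.

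At the low end, RPS26, a small subunit protein near the message exit, had 301.7 FPKM in 3D hypoxia and 431.2 in 3D normoxia (a log2 ratio of -0.51), and 311.6 in 2D hypoxia and 333.9 in 2D normoxia (-0.10). RPL21, of the large subunit, had 120.5 FPKM in 3D hypoxia and 137.4 in 3D normoxia (-0.19), and 77.4 in 2D hypoxia and 90.1 in 2D normoxia (-0.22). These were the only 2 members below 0 in both cultures. RPL21 is uncertain, since with the FPKM of its pseudogenes added its ratios were 0.20 in 3D and 0.45 in 2D. RPL41 and RPS19, a protein mutated in Diamond-Blackfan anaemia, were below 0 in 3D alone, at -0.02 and -0.08. RPL19 followed from above, at 0.02 and 0.09, and RPS6, the substrate of S6 kinase, was at 0.04 in 3D. Near 0 in 2D were RPS9 at 0.03 and RPL18 at 0.07, with RPS15 at 0.17.

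The same members tended to lie high or low in both cultures. Across the 76 members the 2 hypoxia ratios, which share no library, had a Pearson r of 0.64 and a Spearman rho of 0.51, a description over genes that are not independent replicates. Furthest above the member median in both cultures were RPSA, RPL12 and RPLP0, by at least 0.31, 0.25 and 0.23 on the log2 scale. Furthest below it were RPS26, RPL21 and RPL19, by -0.46, -0.37 and -0.17 or further, without the pseudogene FPKM that makes RPL21 uncertain. Members with the tract at the start had median hypoxia ratios of 0.19 in 3D and 0.40 in 2D, the 16 matched members without it had 0.13 and 0.25, and the 14 members not in the promoter table had 0.21 and 0.36. Their culture medians were 0.42, 0.42 and 0.46 in hypoxia and 0.61, 0.58 and 0.58 in normoxia, in that order of sets.

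**Figure D3:**
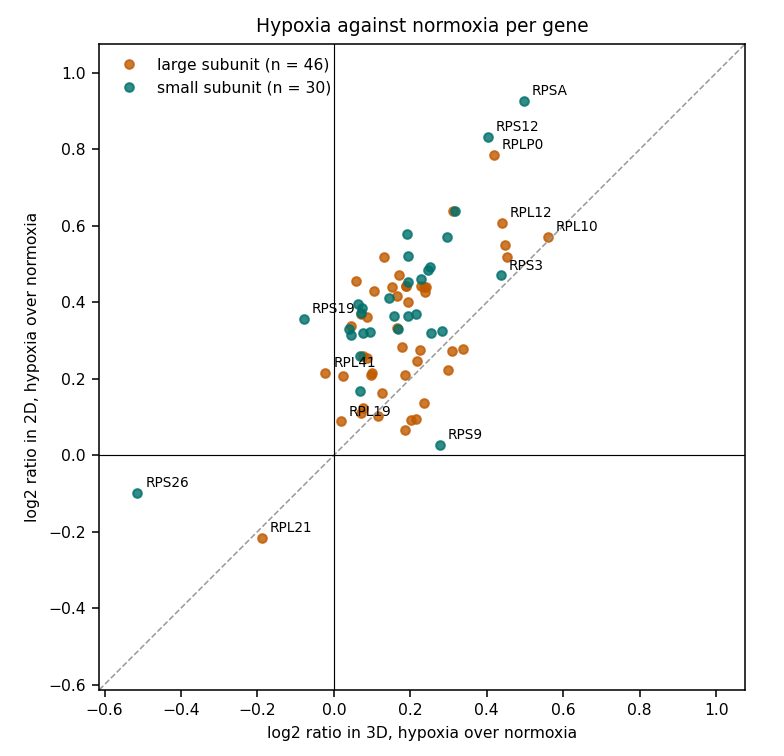
Log2 ratio of hypoxia over normoxia for the 76 members, in 3D (horizontal) and in 2D (vertical), by subunit; each point is 1 gene, the solid lines mark 0 and the dashed line marks equal ratios. RPSA lies high on both axes, at 0.50 in 3D and 0.93 in 2D, and RPS26 is the lowest in 3D, at -0.51.

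The hypoxia ratio was smaller in 3D than in 2D for 66 of the 76 members (51.8% of all genes), 37 of 46 large and 29 of 30 small. The difference between the 2 ratios, 3D minus 2D, had a median of -0.20 (-0.17 for the large and -0.25 for the small subunit, and -0.01 for all genes). It was lowest for RPS19, RPS12 and RPSA, at -0.43 each, and highest for RPS9 at 0.25 and for RPL14 and RPL18 at 0.12 each. With 1 library per group the difference has no test.

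Averaged over both cultures, no member was called for hypoxia by limma across all 12663 genes (Benjamini-Hochberg adjusted p below 0.05). The median effect of the members was 0.26, and with 1 residual degree of freedom a member not called may still have changed. An unadjusted p under 0.05 was found for 10 members (13.2%), against 25.6% of all genes. Of all genes 3.2% were called up and 1.64% down. The closest member was RPSA, with an average log2 effect of 0.71 ± 0.17 (SE; limma adjusted p = 0.0792). RPL10 followed at 0.57 ± 0.14 (limma adjusted p = 0.0875), and RPS12 was at 0.62 ± 0.18 and RPL12 at 0.52 ± 0.15 (limma adjusted p = 0.113 each). RPSA passed the threshold, as the only member, when genes under 5 FPKM were left out, or when genes listed at 0 and small RNA genes were left out. Of all genes 5.54% and 6.02% were called up in these settings, a larger share than of the members.

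The second comparison asked how the 2 culture forms differed within each oxygen level. In hypoxia, members stood higher in 3D than in 2D by a median log2 ratio of 0.43 (0.46 for the large and 0.38 for the small subunit), against -0.03 for all genes, with 72 members above 0 (47% of all genes). In normoxia the median was 0.60 (0.58 for the large and 0.62 for the small subunit), against -0.03 for all genes, and all 76 members lay above 0 (46.9% of all genes). At least 0.32 higher in 3D were 56 members in hypoxia, 36 large and 20 small (21.9% of all genes), and 72 members in normoxia, 45 large and 27 small (21.3% of all genes). No member was lower by 0.32 in either (24.4% and 23.8% of all genes), and none was 2-fold higher (3.8% and 1.98%).

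In 70 of the 76 members both 3D libraries lay above both 2D libraries (25.6% of all genes). The 6 others were RPS3, RPS19, RPS21, RPS26, RPS29 and RPSA, all of the small subunit. The libraries also differ with culture in estimated depth, about 11400000 and 11800000 fragments in 3D hypoxia and normoxia against 39500000 and 24100000 in 2D hypoxia and normoxia, and in their FPKM sums, 596102 and 543547 against 519824 and 473503. The part of depth in the culture ratios was not tested, and depth and culture cannot be told apart here.

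RPL13A, a large subunit protein also known for silencing inflammatory messages outside the ribosome, had 1112 FPKM in 3D hypoxia and 594.3 in 2D hypoxia, and 897.3 in 3D normoxia and 491.7 in 2D normoxia. RPL13 had 312.0 FPKM in 3D hypoxia and 168.6 in 2D hypoxia, and 246.5 in 3D normoxia and 138.9 in 2D normoxia. The 3D libraries did not overlap the 2D libraries for either gene, and their ratios were 0.90 and 0.88 in hypoxia and 0.87 and 0.82 in normoxia. RPL15, at 0.76, was the third of the large subunit in hypoxia. RPS9, of the small subunit body, had 1186 FPKM in 3D hypoxia and 692.6 in 2D hypoxia, and 978.0 in 3D normoxia and 679.4 in 2D normoxia. Its ratio in hypoxia, 0.78, was the highest of the small subunit, followed by RPS4X at 0.56. In normoxia the highest were RPL12 at 0.89, RPL13A at 0.87 and RPLP0 at 0.84 in the large subunit, and RPS12 at 0.92, RPS14 at 0.81 and RPS23 at 0.80 in the small subunit.

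At the low end were 3 genes of the small subunit. RPS29, a zinc finger protein, had 1600 FPKM in 3D hypoxia and 1769 in 2D hypoxia, and 1518 in 3D normoxia and 1417 in 2D normoxia. RPS21 had 1340 FPKM in 3D hypoxia and 1472 in 2D hypoxia, and 1277 in 3D normoxia and 1229 in 2D normoxia. RPS19 had 1752 FPKM in 3D hypoxia and 1905 in 2D hypoxia, and 1850 in 3D normoxia and 1488 in 2D normoxia. For all 3 genes 3D lay below 2D in hypoxia (-0.14, -0.14 and -0.12) and above it in normoxia (0.10, 0.06 and 0.31). RPS26, at -0.05 in hypoxia and 0.37 in normoxia, was the only other member below 0. In the large subunit RPL41 (0.07), RPL38 (0.09) and RPL35 (0.11) were the lowest in hypoxia, and RPL41 (0.31), RPL6 (0.33) and RPL8 (0.35) in normoxia. The culture ratios in hypoxia and in normoxia, which share no library, had a Pearson r of 0.70 and a Spearman rho of 0.62 across the members.

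**Figure D4:**
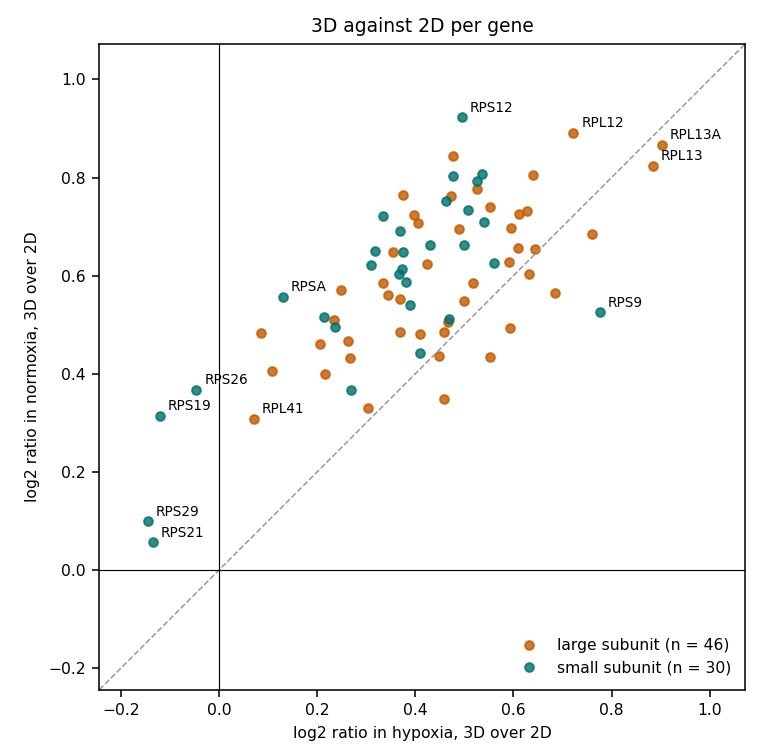
Log2 ratio of 3D over 2D for the 76 members, in hypoxia (horizontal) and in normoxia (vertical), by subunit; each point is 1 gene, the solid lines mark 0 and the dashed line marks equal ratios. RPL13A and RPL13 lie high on both axes, and RPS29, RPS21, RPS19 and RPS26 lie below 0 in hypoxia.

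Averaged over both oxygen levels, 28 of the 76 members rose in 3D culture by limma (adjusted p below 0.05) and none fell, against 10.4% of all genes called up and 11.6% called down. Of the 28, 20 were among the 46 large subunit genes and 8 among the 30 small subunit genes. RPL13 rose by 0.85 ± 0.13 (SE, log2; limma adjusted p = 0.0141), RPL13A by 0.88 ± 0.14 (limma adjusted p = 0.0172) and RPL34 by 0.72 ± 0.13 (limma adjusted p = 0.0200). RPL12 and RPL15 rose by 0.81 ± 0.15 and 0.72 ± 0.14 (limma adjusted p = 0.0229 each). Others of the large subunit that rose included RPL3, RPL7, RPL10, RPL10A, RPL11, RPL17, RPL18, RPL21, RPL22, RPL26, RPL28, RPL31, RPL32 and RPL37A. RPL11 is known to bind MDM2 when it is free of ribosomes. In the small subunit RPS23, at the decoding site, rose by 0.64 ± 0.14 (limma adjusted p = 0.0323), RPS9 by 0.65 ± 0.16 (limma adjusted p = 0.0383) and RPS12 by 0.71 ± 0.18 (limma adjusted p = 0.0451), and with them rose, among others, RPS4X, RPS7 and RPS14. RPLP0 just missed the threshold at 0.66 ± 0.18 (limma adjusted p = 0.0502). When each library was rescaled to the same FPKM sum, 6 members passed, all of the large subunit (RPL12, RPL13, RPL13A, RPL15, RPL21 and RPL34), and none fell. Of all genes 6.06% were then called up and 24.7% down, so the members' share, 7.89%, lay near the background. Without the filter on low values limma called no gene at all, and 6 members (7.89%) had an unadjusted p under 0.05, against 17.2% of all genes.

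How the libraries are scaled sets the size of these ratios. Rescaling each library to the same FPKM sum moved the median of all genes by -0.12 and -0.13 in the hypoxia comparisons of 3D and 2D and by -0.18 in each culture comparison. The member medians were then 0.052 and 0.23 for hypoxia in 3D and 2D, and 0.23 and 0.41 for 3D culture in hypoxia and normoxia. Relative to the median of all genes, which a scaling shifts along with the members, 72, 74, 72 and 76 members stood above it in the 4 comparisons. Of all genes at least 0.32 apart, the share on the higher side was 51.0%, 48.9%, 47.2% and 47.3% in the deposited values, and 31.2%, 27.7%, 26.3% and 24% after rescaling. The members above 0 then numbered 47 and 66 for hypoxia in 3D and 2D, and 68 and 74 for culture in hypoxia and normoxia. Both 3D libraries lay above both 2D libraries in 62. The medians of all genes were -0.14, -0.13, -0.21 and -0.21 on this scale. The shares of all genes above 0, or with both 3D libraries above both 2D libraries, were not counted on it.

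The members are short and abundant, with a median transcript length of 682 bases. Other genes under 1000 bases (2711 genes) had median ratios of -0.05 and -0.02 for hypoxia in 3D and 2D, and of 0.04 and 0.08 for 3D culture in hypoxia and normoxia. The 87 other genes that were both under 1000 bases and at 300 FPKM or more on average had medians of 0.13, 0.18, 0.26 and 0.34, against 0.19, 0.36, 0.43 and 0.60 for the members. The medians of other short, abundant genes thus had the same sign and were smaller. Across the 76 members the hypoxia ratios in 3D and 2D had a Pearson r of 0.06 and -0.17 with log2 transcript length. For the culture ratios in hypoxia and normoxia it was 0.32 and 0.15. The part of length and abundance in the members' ratios was not tested further.

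Ribosomal protein genes have many processed pseudogenes, and 31 pseudogene symbols of 19 members were listed, 15 of them at a mean of at least 1 FPKM. A pair of these stood above their parent gene. RPL13AP5 had 3986, 3230, 2674 and 1879 FPKM in 3D hypoxia, 3D normoxia, 2D hypoxia and 2D normoxia, above RPL13A in every library. RPL21P28 had 1016, 848.6, 855.6 and 591.2 FPKM in the same order, above RPL21 in every library. Since reads of a parent and its copy can be exchanged, RPL13A and RPL21 are uncertain. With the pseudogene FPKM added, a step chosen after seeing the data, the hypoxia ratios of RPL21 turned positive, at 0.20 in 3D and 0.45 in 2D, and its culture ratios were 0.28 in hypoxia and 0.53 in normoxia. Those of RPL13A became 0.31 and 0.46 for hypoxia, and 0.64 and 0.80 for culture, and kept their direction.

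Ribosomal protein genes outside the naming rule included FAU, the precursor of a small subunit protein, with 579.0 and 602.6 FPKM in 3D hypoxia and normoxia and 431.7 and 398.1 FPKM in 2D hypoxia and normoxia. GNB2L1, the symbol in the files for RACK1 of the small subunit, had 1657, 1374, 1022 and 944.6 FPKM in that order. The 9 measured genes of this list had medians of -0.09 and -0.06 for hypoxia in 3D and 2D, and of 0.26 and 0.37 for culture in hypoxia and normoxia. Of the 9, GNB2L1 and RPL36AL rose in 3D culture by limma, by 0.62 ± 0.16 (SE; adjusted p = 0.0432) and 0.53 ± 0.14 (adjusted p = 0.0444), and none was called for hypoxia. Of all genes 10.4% were called up in 3D culture, and 3.2% up and 1.64% down in hypoxia.

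Genes of related functions were set beside the members, and their limma calls in 3D culture are to be read against the 10.4% of all genes called up and 11.6% called down. For hypoxia the shares of all genes were 3.2% called up and 1.64% called down. The 16 translation factors and other genes of the oligopyrimidine class had medians of 0.27 and 0.23 for hypoxia in 3D and 2D, and of 0.50 and 0.51 for 3D culture in hypoxia and normoxia. In 3D culture 7 of the 16 rose by limma and none fell, among them TPT1 by 1.05 ± 0.13 (SE; adjusted p = 0.0106), EIF4B by 0.76 ± 0.13 (adjusted p = 0.0183) and the elongation factor EEF1A1 by 0.73 ± 0.17 (adjusted p = 0.0373). The others were EIF3E, EIF3F, EIF3H and EIF3L, subunits of initiation factor eIF3.

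The 34 ribosome biogenesis genes had medians below 0, at -0.25 and -0.19 for hypoxia and -0.20 and -0.21 for culture. From 5 to 9 of the 34 lay above 0 in the 4 comparisons. In 3D culture 5 of the 34 (14.7%) fell by limma, a share near the background, and none rose. They were TCOF1, UTP20, NOP2, RRP12 and NOLC1, with average effects between -1.10 and -0.56. The 14 genes of RNA polymerase I and its factors had medians of -0.17 and -0.04 for hypoxia and -0.22 and -0.20 for culture, and POLR1A, UBTF and TAF1A fell in 3D culture. Neither list had a member called for hypoxia. The 1697 other genes of at least 4000 bases had culture medians of -0.20 in hypoxia and -0.19 in normoxia, near those of both lists. Their hypoxia medians were 0.03 in 3D and 0.06 in 2D. The part of transcript length in the ratios of these lists was not tested.

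The 16 regulators of ribosome production, among them mTOR and MYC with their partners, had medians of 0.07 and 0.23 for hypoxia in 3D and 2D, and of 0.06 and 0.17 for culture in hypoxia and normoxia. After rescaling to the same sum these were -0.05, 0.10, -0.13 and -0.02. The list mixes activators with inhibitors, so its medians give no direction for ribosome production. By limma DDIT4, an inhibitor of mTOR signalling, rose in hypoxia by 1.45 ± 0.13 (SE; adjusted p = 0.00861), and MXI1, an antagonist of MYC, by 1.28 ± 0.15 (adjusted p = 0.0189). None of the 16 fell in hypoxia, where 3.2% of all genes were called up and 1.64% down. MYC stood at 55.5 FPKM in 3D hypoxia and 34.0 in 3D normoxia, and 66.2 in 2D hypoxia and 46.2 in 2D normoxia (adjusted p = 0.0563 by limma). In 3D culture DDIT4, MXI1 and EIF4EBP2, which binds the cap factor eIF4E, rose, and MTOR fell by 0.53 ± 0.11 (SE; limma adjusted p = 0.0289).

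The 77 mitochondrial ribosomal protein genes stood lower in hypoxia, at -0.31 in 3D and -0.24 in 2D, where the cytosolic members stood higher. Of the 77, MRPL41 fell in hypoxia, by 0.62 ± 0.12 (limma adjusted p = 0.0483), and none rose. Of all genes 1.64% were called down in hypoxia and 3.2% up, so this single call is no result about the list. In 3D culture 8 (10.4%) rose, the same share as of all genes, and none fell, and the medians were 0.14 in hypoxia and 0.24 in normoxia. The median for hypoxia libraries turned to -0.04 when each library was rescaled to the same sum and to -0.01 on the same sum over all other symbols.

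**Figure D5:**
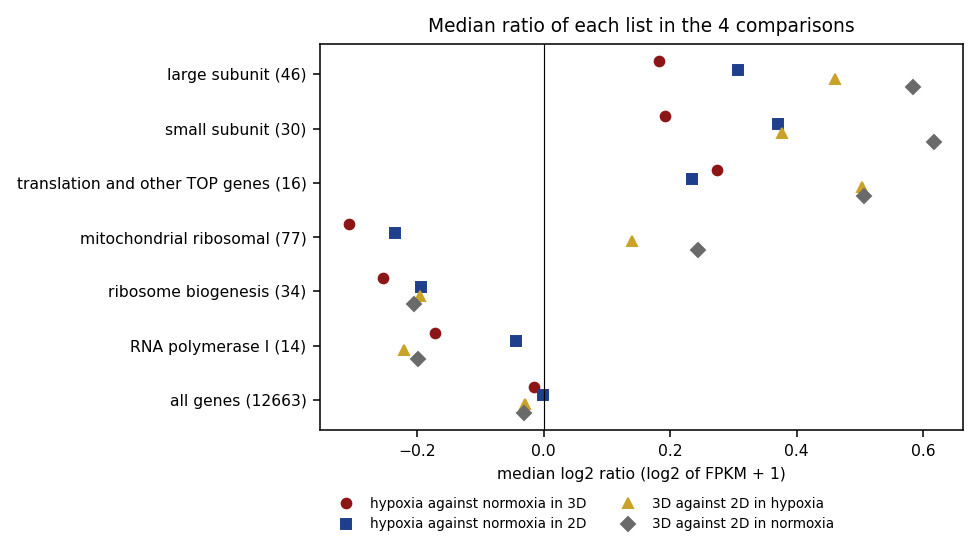
Median log2 ratio of each gene list in the 4 comparisons, on the FPKM values as deposited. The cytosolic members and the oligopyrimidine genes lie above 0 in all 4, ribosome biogenesis and RNA polymerase I below 0 in all 4, and mitochondrial ribosomal proteins below 0 in hypoxia and above 0 in 3D culture, a direction that turned to -0.04 for 3D against 2D in hypoxia after rescaling to the same sum.

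The labels were checked against markers. CA9, a carbonic anhydrase induced by low oxygen, had 199.7 FPKM in 3D hypoxia and 4.05 in 3D normoxia, and 138.5 in 2D hypoxia and 4.0 in 2D normoxia. The 5 epithelial markers summed to between 3677 and 7575 FPKM. Of these the keratin KRT8 ran between 1894 and 3731 FPKM over the libraries, CDH1 between 24.6 and 37.3 FPKM, and EPCAM between 1.43 and 2.73 FPKM. The 5 fibroblast markers summed to 0.697, 0.870, 13.4 and 2.43 FPKM in 3D hypoxia, 3D normoxia, 2D hypoxia and 2D normoxia, the 4 endothelial markers to between 0.169 and 0.462 FPKM, and the 4 blood markers to between 3.45 and 11.4 FPKM. COL1A1 alone held most of the fibroblast marker sum, at 0.614, 0.856, 13.2 and 2.32 FPKM in the same order of libraries. CD14 held nearly all of the blood marker sum, PTPRC reached at most 0.0168 FPKM and CD3E was listed at 0 in all libraries. The part of these markers in the members' ratios was not tested.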

How the data were processed

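Messenger RNA of A549 cells was sequenced in 4 libraries, 1 each for 3D hypoxia, 3D normoxia, 2D hypoxia and 2D normoxia. Per the labels' protocols, TruSeq Stranded mRNA reagents were used. The submitters' processing notes name the hg19 build and, with no order of steps, Cuffdiff 2.2.1, TopHat2 2.1.1, SAMtools 0.1.18 and Bowtie2 2.2.8. The authors deposited 1 FPKM value per symbol and library. Not given in the sources used here are the annotation, the strand setting and how reads with several placements were handled. Counts were not used, and the depths given are estimates from the smallest steps of FPKM times length over 2134 genes with a single transcript in GENCODE 29, which also gave transcript lengths. Near the value taken as 1 fragment lay 59 to 74 genes.

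Ratios were taken on log2(FPKM + 1), which understates the differences of low genes, over 12663 genes averaging 1 FPKM or more. For the average effects of oxygen and culture an additive model with trend was fitted in R 4.3.3 using limma 3.58.1, after a test on simulated data. It had 1 residual and 4.67 prior degrees of freedom, and p-values were adjusted by Benjamini-Hochberg over all genes, with a threshold of 0.05. With 1 library per group, the residual of this fit is the difference between the hypoxia ratios of the 2 cultures. The p-values set the effects against that difference, together with the prior from all genes, and not against a spread between replicates. Nothing says that the libraries came from separate cultures, so that difference may be technical. Named members were the stalk genes and RPSA, the 5 of highest and lowest level, the 3 highest and lowest per subunit in each comparison, called members, and those furthest from the member median in both hypoxia comparisons. A few genes that this rule names are not reported here. The members and lists were chosen with earlier results of these data known. Other steps used matplotlib 3.10.9, scipy 1.17.1, pandas 2.3.3 and numpy 2.4.6 under Python 3.11.15. Alternatives were other scalings, filters, pseudocounts and member sets.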

Additional observations from a re-analysis of the deposited data

Results flagged for a closer look

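On the deposited values a few members moved one way in one setting and the other way in the other. With 1 library per group these differences were not tested, and the share of all genes was not counted. Such a list depends on the scaling. After rescaling to the same FPKM sum, 47 and 66 members lay above 0 for hypoxia in 3D and 2D, against 72 and 74. For hypoxia against normoxia, RPS19 was lower in 3D (-0.08) and higher in 2D (0.36), a difference of -0.43 on the log2 scale. RPL41 did likewise, at -0.02 and 0.22, a difference of -0.24. For 3D against 2D, RPS19 (-0.43), RPS26 (-0.41), RPS29 (-0.24) and RPS21 (-0.19) were lower in hypoxia and higher in normoxia. The ratios nearest to 0 among them were -0.05 for RPS26 in hypoxia and 0.06 for RPS21 in normoxia.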

How the results depend on the processing

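Medians were compared with a tolerance of 0.1 on the log2 scale and counts within 1.5 times. Rescaling each library to a sum of 1000000 gave member medians of 0.052 and 0.23 for hypoxia in 3D and 2D. For 3D culture in hypoxia and normoxia they were 0.23 and 0.41. At least 0.32 higher on the log2 scale were 2, 18 and 22 members in the first 3 of these comparisons. Of all 12663 genes 1650, 1379 and 1825 were. The same sum over all other symbols gave medians of 0.064 for hypoxia in 3D and of 0.27 and 0.48 for culture in hypoxia and normoxia. Past 0.32 were then 4 members for hypoxia in 3D, 29 for hypoxia in 2D and 28 for culture in hypoxia. Of all 12663 genes 1581, 1474 and 1895 passed it in these 3 comparisons. The ratio of large to small subunit sums became 1.46, 1.46, 1.40 and 1.47 in 3D hypoxia, 3D normoxia, 2D hypoxia and 2D normoxia without members that have a pseudogene symbol, and 1.06, 1.07, 1.02 and 1.10 without RPLP0, RPLP1, RPLP2 and RPSA. Members called by limma for culture numbered 6 (same sum), 8 (same sum of other symbols), 49 (at least 5 FPKM) and 0 (no filter), against 28, where 6.06%, 7.15%, 14.1%, 0% and 10.4% of all genes were called up. Members called for hypoxia numbered 1 (at least 5 FPKM) and 1 (without genes listed at 0 and small RNA genes), against 0. This was 1.32% of the members in each, where 5.54% and 6.02% of all genes were called up. Over all genes, hypoxia calls numbered 346 (median ratio set to 0), 366 (no trend), 1286 (without genes listed at 0 and small RNA genes) and 0 (no filter), against 613, and culture calls 0 (no filter), against 2785. The cause was not tested. No paired analysis was possible because the labels give no replicate numbers that could pair libraries, beyond the culture and oxygen terms that the model already holds, and leaving out a library leaves no residual degree of freedom.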
